A study of Mus musculus with 22 samples.

Results

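Anti-PD-L1 antibody was added to the BET inhibitor JQ1 in mice carrying EMT6 mammary tumours, and the CD45-positive cells of those tumours were compared with the CD45-positive cells of tumours given JQ1 alone. The comparison used 4 of the 22 libraries of the series: JQ1 with anti-PD-L1 (replicates 1 and 2) and JQ1 (replicates 1 and 2). All 10340 genes of 24353 with at least 1 FPKM (fragments per kilobase of transcript, scaled to the mapped fragments of the library) in 2 or more of the 10 CD45-positive libraries were tested. The other 6 CD45-positive libraries held JQ1 with paclitaxel and anti-PD-L1 (the 3-drug group), JQ1 with paclitaxel, and vehicle, with 2 libraries each.

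All groups were wild-type BALBc mice aged 5 to 6 weeks in which 200000 EMT6 cells, a mouse mammary carcinoma line, had been placed in both inguinal fat pads. Tumours became palpable between days 5 and 7. The dissociated tumour cells were parted into fractions with magnetic beads that carry an antibody to CD45, which enriches leukocytes without purifying them. JQ1 was given by gavage at 50 mg/kg daily, and anti-PD-L1 (clone 10F.9G2) and paclitaxel each at 10 mg/kg by intraperitoneal injection 2 times a week. Within each of the JQ1 with anti-PD-L1 and JQ1 groups, the names of both libraries carry 1 mouse code, and replicate 1 is a right and replicate 2 a left tumour. The CD45-positive vehicle libraries also carry 1 mouse code. Each of the groups given paclitaxel carries 2 different mouse codes in its CD45-positive libraries. The fit pooled the spread within all 5 groups. The p-values therefore mix the spread between tumours that may share an animal with the spread between tumours of different mouse codes. For anti-PD-L1 added to JQ1, the treatment and the mouse cannot be told apart.

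PD-L1, encoded by Cd274, is a surface ligand through which tumour and myeloid cells hold back T cells that carry its receptor PD-1, and an antibody to PD-L1 blocks that contact. JQ1 displaces the BET proteins from acetylated chromatin and lowers the transcription of many genes, including interferon-induced genes and Cd274 itself in several cell types. CD45 (Ptprc) is carried by all nucleated blood cells, so the CD45-positive fraction of a tumour holds T cells, B cells, NK cells, dendritic cells, neutrophils, monocytes and macrophages.

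The libraries differed in depth. The files give no read totals, but the step size of low FPKM values gave relative depths of 0.739 and 0.671 in the JQ1 with anti-PD-L1 libraries, against 0.862 and 1.28 in the JQ1 libraries. The JQ1 with anti-PD-L1 replicates were correlated at 0.977 over log2(FPKM + 1) and the JQ1 replicates at 0.938. The median gap between replicates was 0.22 on the log2 scale with anti-PD-L1 and 0.33 with JQ1 alone, and a gap above 1 was found in 287 genes with anti-PD-L1 and in 940 genes with JQ1 alone. JQ1 replicate 1 stood apart, at 45.8 on the second principal component (21.3% of the variance), where the other 9 libraries lay between -25.1 and 20.5. Ptprc was at 49.4 and 46.2 FPKM with anti-PD-L1 and at 73.2 and 51.2 FPKM with JQ1 alone, against 8.05 and 4.75 FPKM with anti-PD-L1 and 4.24 and 2.41 FPKM in the CD45-negative libraries of the same tumours.

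No gene passed the test for anti-PD-L1 added to JQ1. With limma on log2(FPKM + 1) and Benjamini-Hochberg adjustment over all 10340 genes, 0 genes (0%) had an adjusted p under 0.05. The lowest adjusted p was 0.0827, a value that Gimap6 shared with the gene of lowest unadjusted p. At an unadjusted p under 0.05, 665 genes lay higher (6.43%) and 1043 lower (10.1%) with anti-PD-L1. In 2112 genes (20.4%) both JQ1 with anti-PD-L1 libraries lay above both JQ1 libraries, and in 3017 genes (29.2%) both lay below. These shares are the background for every count of list members that follows. The median difference over all genes was -0.07.

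The count of genes called depended on which libraries were in the fit. Without JQ1 replicate 2, 73 genes passed, 21 higher and 52 lower with anti-PD-L1, and the remaining JQ1 library was then assumed to vary like the other groups. Cd3e, Gimap6, Cd74 and Irf1 were among the 52, and Chil3, Pf4 and Ccl7 among the 21. Without JQ1 replicate 1, 0 genes passed limma's test and 1231 had an unadjusted p under 0.05. Without either JQ1 with paclitaxel library, 8 genes passed, all lower with anti-PD-L1 among them the B cell genes Cd79a, Cd79b, Fcmr and Pou2af1. Leaving out replicate 1 of JQ1 with anti-PD-L1, a single gene passed, the neutrophil granule gene Camp. It was at 0 FPKM in the library left out and 27.2 FPKM in the other library with anti-PD-L1, against 0.214 and 0 FPKM with JQ1 alone, so the call rests on 1 library and the groups overlapped. Taking each mouse code as 1 value left 1 value in each compared group, so that fit cannot show whether the differences hold between animals.

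**Figure D1:**
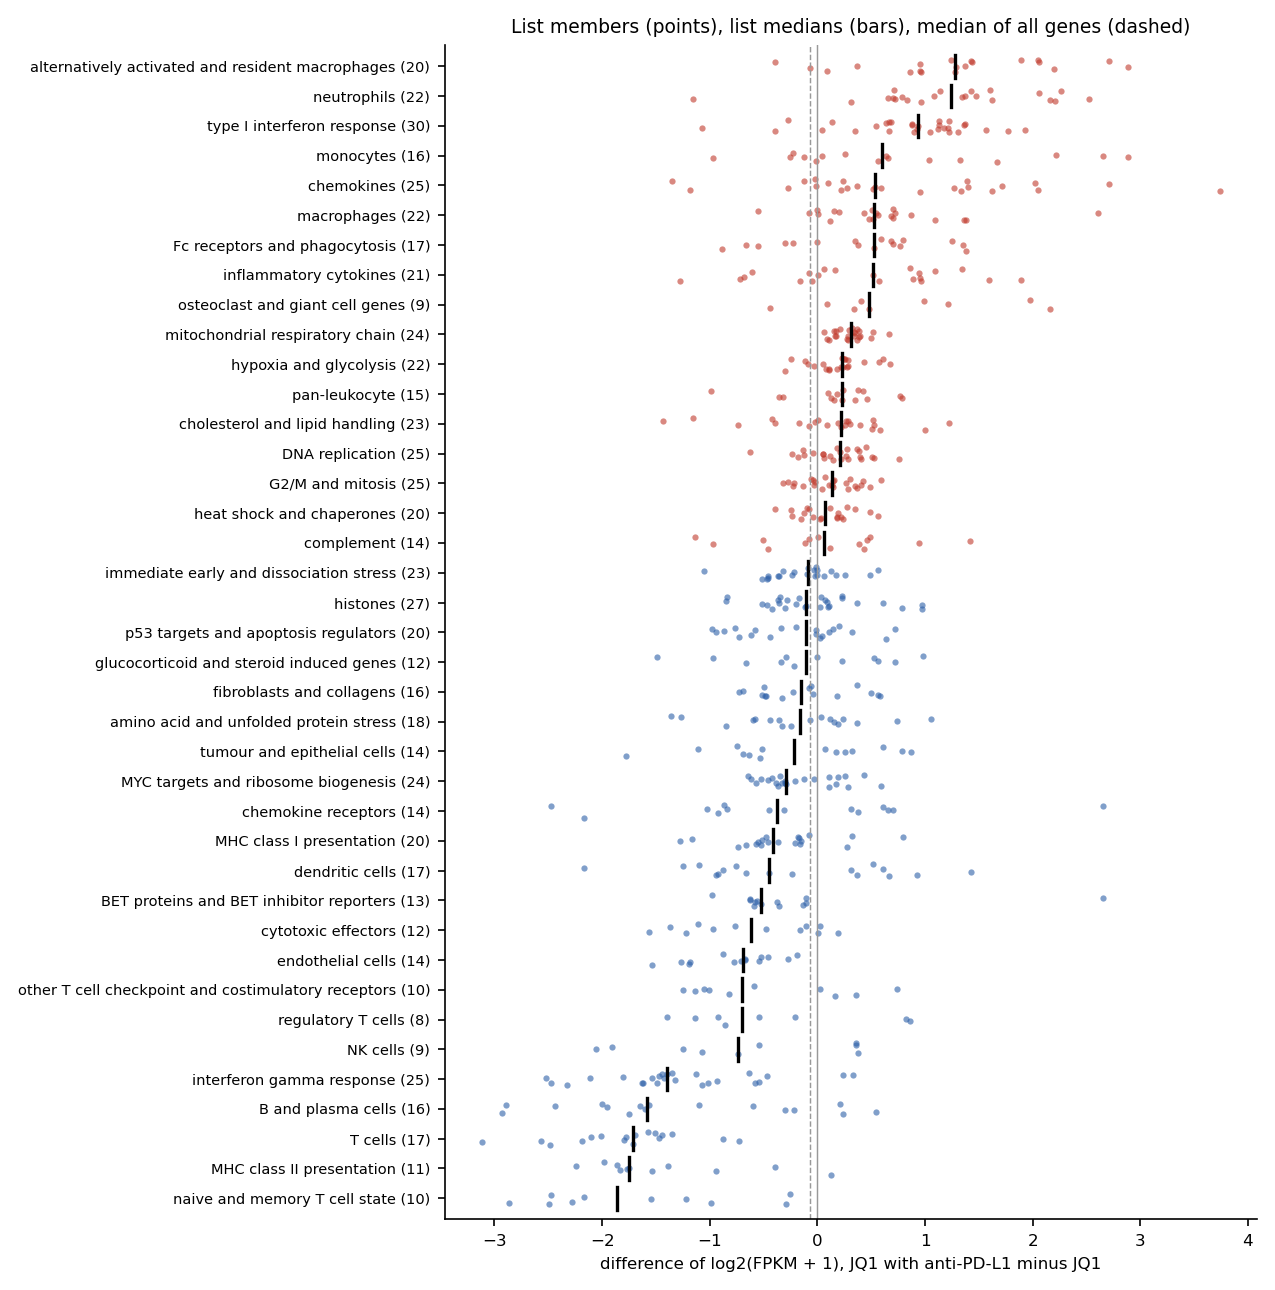
Difference of log2(FPKM + 1), JQ1 with anti-PD-L1 minus JQ1 (horizontal axis), for the tested members (points) of each gene list with 8 or more tested members; bars mark list medians, the dashed line the median of all 10340 genes (-0.07), and numbers in brackets the members tested. T cell, B cell and MHC class II lists lie to the left, and macrophage, neutrophil and type I interferon lists to the right; no single gene passed the adjusted test.

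Genes of the PD-1 pathway itself lay at low levels or differed most between the JQ1 tumours. Cd274 was at 22.2 and 29.7 FPKM with anti-PD-L1, against 104 and 22.8 FPKM with JQ1 alone. The high JQ1 value came from replicate 1 and the groups overlapped; the difference was -0.90 ± 0.88 (SE; limma adjusted p = 0.652). Pdcd1, which encodes PD-1, was at 0.749 and 1.44 FPKM with anti-PD-L1 and at 4.12 and 1.73 FPKM with JQ1 alone, without overlap. Pdcd1lg2, the second PD-1 ligand, was at 0.136 and 0.225 FPKM with anti-PD-L1 and at 1.22 and 0.0980 FPKM with JQ1 alone, below the level needed for a test. Cd80, a costimulatory ligand that also binds PD-L1, was at 3.51 and 4.10 FPKM with anti-PD-L1 and at 2.65 and 0.910 FPKM with JQ1 alone. Its relative Cd86 overlapped between the groups, at 27.2 and 32.6 FPKM with anti-PD-L1 and 53 and 19.4 FPKM with JQ1 alone. The T cell receptors for these ligands lay below both JQ1 libraries. Ctla4, an inhibitory receptor of activated and regulatory T cells, was at 0.598 and 1.03 FPKM with anti-PD-L1, against 5.13 and 2.66 FPKM with JQ1 alone (difference -1.40 ± 0.32, limma adjusted p = 0.111). Cd28, the costimulatory receptor, was at 0.186 and 0.499 FPKM with anti-PD-L1, against 6.79 and 1.26 FPKM with JQ1 alone. Of the 6 tested genes of the pathway 1 lay higher and 3 lower without overlap, with a median difference of -0.88. That median was -0.12 without JQ1 replicate 1 and -1.54 without JQ1 replicate 2.

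Other T cell checkpoint and costimulatory receptors lay lower in 6 of 10 tested genes without overlap, and none lay higher. Their median was -0.70, with -0.32 without JQ1 replicate 1 and -0.93 without JQ1 replicate 2. Icos, a costimulatory receptor of activated T cells, was at 1.22 and 0.709 FPKM with anti-PD-L1, against 4.76 and 1.65 FPKM with JQ1 alone. Vsir and Havcr2, checkpoint genes that myeloid cells express as well, had the highest levels in the group and overlapped between treatments. Vsir was at 35.6 and 42.6 FPKM with anti-PD-L1 and 27.3 and 53.8 FPKM with JQ1 alone, and Havcr2 at 24.7 and 31.9 FPKM with anti-PD-L1 and at 25.7 and 10.4 FPKM with JQ1 alone.

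T cell genes lay lower with anti-PD-L1 in every tested member. All 17 of the 17 tested T cell markers were below both JQ1 libraries, 16 of them at an unadjusted p under 0.05, and their median difference was -1.71. Cd3e, a subunit of the T cell receptor complex, was at 2.68 and 2.28 FPKM with anti-PD-L1 and at 35.4 and 10.6 FPKM with JQ1 alone (difference -2.57 ± 0.49, limma adjusted p = 0.1). Lck, the kinase that starts receptor signalling, was at 4.18 and 4.29 FPKM with anti-PD-L1 and at 32.0 and 8.76 FPKM with JQ1 alone. The adhesion receptor Cd2 was at 2.80 and 2.70 FPKM with anti-PD-L1 and at 47.8 and 8.08 FPKM with JQ1 alone. In each of these genes JQ1 replicate 1 was the highest of the 4 libraries, and JQ1 replicate 2 still lay above both libraries with anti-PD-L1. The coreceptors did the same at low levels: Cd4 was at 0.679 and 0.581 FPKM with anti-PD-L1 and 6.79 and 1.63 FPKM with JQ1 alone, Cd8a at 0.373 and 0.287 FPKM with anti-PD-L1 and 2.15 and 0.885 FPKM with JQ1 alone, and Cd8b1 at 0.351 and 1.16 FPKM with anti-PD-L1 and 4.67 and 2.79 FPKM with JQ1 alone.

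The summed level of the T cell list was 24.5 and 22.1 FPKM with anti-PD-L1, against 293 and 72.2 FPKM with JQ1 alone, and was 32.0 and 23 FPKM in vehicle tumours. Beside vehicle the JQ1 libraries were thus the high ones, and the libraries with anti-PD-L1 lay near those of vehicle tumours. The list was at 82.0 and 30.4 FPKM in the 3-drug group and at 42.0 and 11.8 FPKM with JQ1 and paclitaxel. Only JQ1 replicate 1 therefore lay above all libraries of the other groups. In bulk samples fewer cells of a type and less RNA per cell cannot be told apart. The median difference of the list was -0.90 without JQ1 replicate 1, -2.60 without JQ1 replicate 2, and -1.63 with relative depth as a covariate.

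Transcripts of naive and memory lymphocytes had some of the lowest p-values. Gimap6, a GTPase needed for lymphocyte survival, was at 3.65 and 2.01 FPKM with anti-PD-L1 and at 61.4 and 26.8 FPKM with JQ1 alone (difference -3.48 ± 0.42, limma adjusted p = 0.0827). Tcf7, the transcription factor TCF-1 of naive and memory-like T cells, was at 1.05 and 1.21 FPKM with anti-PD-L1 and at 14.8 and 8.05 FPKM with JQ1 alone. Ccr7, the receptor that leads T cells and dendritic cells to lymph nodes, was at 18.8 and 19.2 FPKM with anti-PD-L1, against 145 and 54.7 FPKM with JQ1 alone. None of these 3 genes overlapped between the groups. Lef1 and Satb1, further regulators of resting T cells, differed by -2.28 and -2.87. Klf2, in the same list, differed by -1.54 but was also found where T cell genes were low. In the CD45-negative libraries of the same tumours it was at 39.7 and 34.0 FPKM with anti-PD-L1 and 74.0 and 64.3 FPKM with JQ1 alone. The summed T cell list there was at 8.01 and 3.27 FPKM with anti-PD-L1 and 3.45 and 4.38 FPKM with JQ1 alone. Of the 10 tested members of the naive and memory list 8 lay lower without overlap and none higher, with a median of -1.86. Other lymphocyte-expressed genes among the 12 lowest-p genes on that side were Ets1 (-2.56), Gimap4 (-2.35), P2ry10 (-2.38) and the IL-2 and IL-15 receptor subunit Il2rb (-1.90). Nfatc3, Rapgef6, Hip1r and Tspan13 completed the lymphoid and broadly expressed genes of that set, with differences of -1.40, -1.37, -1.84 and -1.28. All 8 lay below both JQ1 libraries, with limma adjusted p-values of 0.0844 to 0.0931.

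B cell genes lay lower with anti-PD-L1 by a similar size, and here both JQ1 libraries were high. Cd79b, a signalling chain of the B cell receptor, was at 1.96 and 1.24 FPKM with anti-PD-L1 and at 21.3 and 15.4 FPKM with JQ1 alone (difference -2.89 ± 0.55, limma adjusted p = 0.1). Its partner Cd79a was at 14.7 and 11.5 FPKM with anti-PD-L1 and at 109.7 and 102 FPKM with JQ1 alone. The surface protein Ms4a1 (CD20) was at 2.80 and 0.962 FPKM with anti-PD-L1 and at 7.40 and 12.3 FPKM with JQ1 alone, and Fcer2a (CD23) at 0.159 and 0.760 FPKM with anti-PD-L1 and at 5.06 and 4.38 FPKM with JQ1 alone. None of the 4 overlapped. Across the B and plasma cell list 10 of 16 tested genes lay lower without overlap and none higher, with a median of -1.58, which was -1.09 without JQ1 replicate 1. The members with the highest level, Cd37 and Xbp1, are also expressed by other leukocytes and overlapped between the groups, at 67.0 and 85.8 FPKM with anti-PD-L1 and at 47.6 and 69.0 FPKM with anti-PD-L1 and at 71.0 and 60.5 FPKM with JQ1 alone and at 43.5 and 54.0 FPKM with JQ1 alone.

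Natural killer and cytotoxic genes lay lower by less. Of 9 tested NK cell genes 6 lay lower and 1 higher without overlap (median -0.74), and of 12 cytotoxic effectors 5 lay lower and none higher (median -0.62). Prf1, the pore-forming protein perforin, was at 2.28 and 2.25 FPKM with anti-PD-L1 and at 6.11 and 5.96 FPKM with JQ1 alone (difference -1.11 ± 0.23, limma adjusted p = 0.102). Nkg7, a granule membrane protein, was at 3.87 and 8.66 FPKM with anti-PD-L1, against 21.4 and 17.3 FPKM with JQ1 alone. The NK receptor chains Klrc1 and Klrd1 differed by -1.25 and -1.07, and Gzma by -0.77. Gzmc overlapped, at 9.65 and 14.8 FPKM with anti-PD-L1 and 4.51 and 34.2 FPKM with JQ1 alone. The 1 NK gene that lay higher was Fcer1g, an adaptor chain that myeloid cells express at high level, at 1039 and 1111 FPKM with anti-PD-L1 and 825 and 827 FPKM with JQ1 alone. Ifng, the cytokine of activated T and NK cells, was at 0.420 and 0.461 FPKM with anti-PD-L1 and at 8.11 and 0.242 FPKM with JQ1 alone, so a single JQ1 library carried nearly all of it. Of 8 regulatory T cell genes 5 lay lower and 1 higher without overlap (median -0.70, with -0.24 without JQ1 replicate 1). Foxp3, their defining factor, was at 0.972 and 1.42 FPKM with anti-PD-L1 and at 2.69 and 1.75 FPKM with JQ1 alone, and Capg, an actin-capping protein of macrophages too, was the higher one, at 578 and 586 FPKM with anti-PD-L1 against 419 and 256 FPKM with JQ1 alone. Il10 overlapped, at 51.3 and 184 FPKM with anti-PD-L1 and 96.1 and 29.3 FPKM with JQ1 alone.

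**Figure D2:**
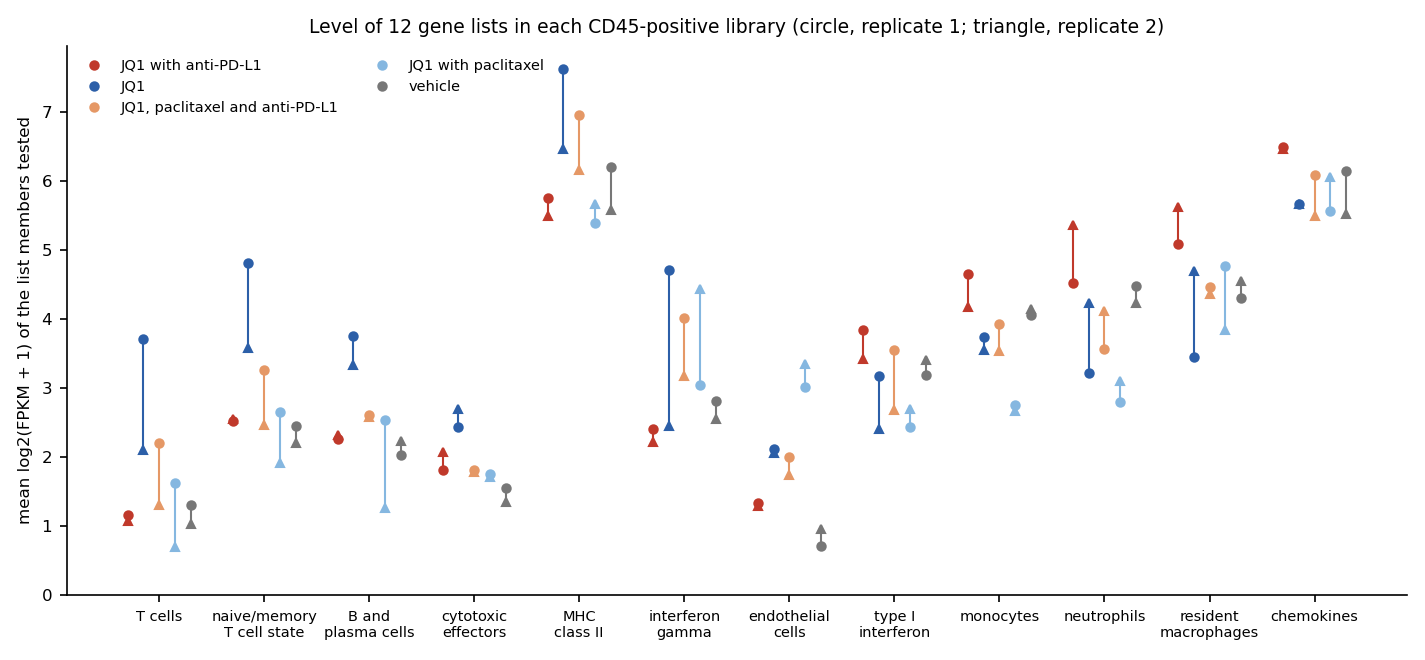
Mean log2(FPKM + 1) over the tested members (vertical axis) of 12 gene lists in each of the 10 CD45-positive libraries, by group; circles are replicate 1, triangles replicate 2, and a line joins the 2 tumours of a group. JQ1 replicate 1 is the highest library for the T cell, naive T cell, MHC class II and interferon gamma lists, and both libraries with anti-PD-L1 lie below both JQ1 libraries there.

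MHC class II genes, which present peptides to CD4 T cells, lay lower with anti-PD-L1 in 9 of 11 tested members without overlap and higher in none, with a median of -1.75. The median was -0.93 without JQ1 replicate 1 and -2.45 without JQ1 replicate 2. Cd74, the invariant chain, was at 759 and 632 FPKM with anti-PD-L1 and at 5607 and 1930 FPKM with JQ1 alone (difference -2.25 ± 0.55, limma adjusted p = 0.121). The peptide-binding chains followed: H2-Aa was at 229 and 207 FPKM with anti-PD-L1 and 1284 and 475 FPKM with JQ1 alone, H2-Ab1 at 349 and 325 FPKM with anti-PD-L1 and 1905 and 679 FPKM with JQ1 alone, and H2-Eb1 at 127 and 105 FPKM with anti-PD-L1 and 712 and 221 FPKM with JQ1 alone. H2-DMb2, of the peptide-loading complex, was at 39.3 and 31.1 FPKM with anti-PD-L1 and at 195 and 102 FPKM with JQ1 alone. In these 5 genes JQ1 replicate 1 lay above replicate 2, and replicate 2 above both libraries with anti-PD-L1. Ciita, the coactivator that switches the class II genes on, was low but even within groups, at 0.420 and 0.425 FPKM with anti-PD-L1 and at 3.15 and 3.12 FPKM with JQ1 alone (difference -1.54 ± 0.21, limma adjusted p = 0.0844). B cells and dendritic cells both express class II genes. The summed B cell list was at 170 and 223 FPKM with anti-PD-L1 and 359 and 312 FPKM with JQ1 alone. That sum includes Cd37 and Xbp1, which other leukocytes also express and which overlapped between the groups. As a mean of log2(FPKM + 1), the list was at 2.26 and 2.32 with anti-PD-L1 and 3.75 and 3.33 with JQ1 alone. The part of B cells in the class II result was not tested. The summed class II list was 2911 and 2646 FPKM with anti-PD-L1, 11442 and 4470 FPKM with JQ1 alone, and 4559 and 3260 FPKM in vehicle tumours.

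Class II promoters share a short upstream module whose Y box, bound by NF-Y, lies next to the X box to which CIITA is recruited. The core of the Y box, TGATTGG on either strand, contains the inverted CCAAT box. It was found in 7 of the 9 class II list genes that have a promoter among the RefSeq sequences used (77.8%), against 2568 of all 32851 promoters of 300 bases (7.82%). A list gene was counted if any of its promoters held the core, whereas the background counts each promoter, so the units differ. The match is a description of letters and not evidence of binding. The promoters of 3 class II genes with values above are shown as the 300 bases around the start, in GRCm38.p6 on the coding strand, with the Y box core in capitals. H2-Aa is at chr17:34287774-34288073 on the minus strand, H2-Eb1 at chr17:34305617-34305916 on the plus strand and H2-DMb2 at chr17:34144999-34145298 on the plus strand, and the core begins 50, 61 and 92 bases before the start.
H2-Aa: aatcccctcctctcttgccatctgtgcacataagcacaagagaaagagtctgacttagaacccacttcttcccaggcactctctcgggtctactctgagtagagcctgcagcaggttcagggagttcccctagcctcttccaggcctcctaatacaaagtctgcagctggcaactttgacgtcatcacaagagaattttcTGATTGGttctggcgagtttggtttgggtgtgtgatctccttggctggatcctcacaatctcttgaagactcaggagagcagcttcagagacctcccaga
H2-Eb1: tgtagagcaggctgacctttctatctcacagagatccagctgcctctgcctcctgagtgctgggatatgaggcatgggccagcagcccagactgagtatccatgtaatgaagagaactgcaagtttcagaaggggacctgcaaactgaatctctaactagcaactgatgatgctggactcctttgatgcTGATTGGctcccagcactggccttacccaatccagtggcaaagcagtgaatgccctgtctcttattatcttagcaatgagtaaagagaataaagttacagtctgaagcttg
H2-DMb2: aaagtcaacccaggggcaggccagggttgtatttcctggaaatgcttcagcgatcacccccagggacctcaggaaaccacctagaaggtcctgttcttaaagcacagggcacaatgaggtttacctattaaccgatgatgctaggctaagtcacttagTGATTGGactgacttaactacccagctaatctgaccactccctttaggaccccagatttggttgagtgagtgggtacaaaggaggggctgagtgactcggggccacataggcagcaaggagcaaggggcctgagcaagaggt

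Dendritic cell genes lay on both sides. Of 17 tested, 4 lay higher and 6 lower without overlap (median -0.45, with -0.098 without JQ1 replicate 1 and -0.26 without JQ1 replicate 2). Zbtb46, a transcription factor of conventional dendritic cells, was at 0.275 and 0.457 FPKM with anti-PD-L1 and 1.33 and 1.96 FPKM with JQ1 alone, and Siglech, of plasmacytoid dendritic cells, at 0.381 and 0 FPKM with anti-PD-L1 and 1.39 and 2.26 FPKM with JQ1 alone. Irf8, needed for their development, was at 51.7 and 45.7 FPKM with anti-PD-L1 and 85.7 and 95.0 FPKM with JQ1 alone. The members with the highest level were Cd83, which overlapped at 84.4 and 245 FPKM with anti-PD-L1 and 164 and 80.9 FPKM with JQ1 alone, and Bst2, an antiviral protein induced by interferon, which lay higher with anti-PD-L1 at 89.8 and 82.3 FPKM with anti-PD-L1 against 57.8 and 50.1 FPKM with JQ1 alone. MHC class I genes lay lower in 9 of 20 tested members and higher in 2 without overlap (median -0.41). The median turned to 0.17 without JQ1 replicate 1 and was -0.82 without JQ1 replicate 2. H2-D1 and B2m, a class I heavy chain and its light chain, differed by -0.48 and -0.57.

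The interferon gamma response separated the JQ1 tumours as much as it separated the treatments. Of 25 tested genes 11 lay lower with anti-PD-L1 without overlap and none higher, with a median of -1.40, but the median was -0.15 without JQ1 replicate 1 and -2.54 without JQ1 replicate 2. Irf1, an early interferon gamma target, lay below both JQ1 libraries at 26.9 and 27.8 FPKM with anti-PD-L1, against 147 and 64.8 FPKM with JQ1 alone (difference -1.80 ± 0.35, limma adjusted p = 0.1). Gbp4, a guanylate-binding protein, was at 2.21 and 1.80 FPKM with anti-PD-L1 and 49.6 and 4.87 FPKM with JQ1 alone, and the GTPase Iigp1 at 0.637 and 1.27 FPKM with anti-PD-L1 and 13.5 and 3.79 FPKM with JQ1 alone. In both, JQ1 replicate 2 lay much nearer the libraries with anti-PD-L1 than its own replicate. AW112010, an interferon-induced transcript with a high level in JQ1 replicate 1, overlapped at 28.2 and 23.3 FPKM with anti-PD-L1 and 267 and 24.0 FPKM with JQ1 alone. The summed list was 196 and 177 FPKM with anti-PD-L1, 1100 and 212 FPKM with JQ1 alone and 298 and 216 FPKM in vehicle tumours.

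The type I interferon response lay on the other side. Of 30 tested genes 20 lay above both JQ1 libraries and 1 below, with a median of 0.93, which stayed positive without JQ1 replicate 1 (1.34) and without JQ1 replicate 2 (0.61). Usp18, a negative regulator of the type I interferon receptor, was at 19.1 and 12.2 FPKM with anti-PD-L1 and at 5.24 and 2.65 FPKM with JQ1 alone (difference 1.77 ± 0.41, limma adjusted p = 0.116). Irf7, the factor that amplifies interferon production, was at 126 and 67.7 FPKM with anti-PD-L1, against 33.1 and 45.9 FPKM with JQ1 alone. Oas2, an RNA-sensing synthetase, was at 2.54 and 2.80 FPKM with anti-PD-L1 and at 0.231 and 0.241 FPKM with JQ1 alone (difference 1.57 ± 0.27, limma adjusted p = 0.0931). Ifit3, which blocks viral RNA, was at 8.51 and 3.90 FPKM with anti-PD-L1 and 1.16 and 0.485 FPKM with JQ1 alone. These genes did not overlap between the groups. Members with the highest level were Ifi27l2a, at 173 and 154 FPKM with anti-PD-L1 and 88.7 and 87.8 FPKM with JQ1 alone, and Oasl1, at 116 and 131 FPKM with anti-PD-L1 and at 107 and 20.3 FPKM with JQ1 alone. Isg15, a ubiquitin-like modifier, overlapped at 65.2 and 46.1 FPKM with anti-PD-L1 and 51.5 and 15.5 FPKM with JQ1 alone. Stat2, which transmits the type I signal, was the 1 member below both JQ1 libraries, at 5.03 and 4.38 FPKM with anti-PD-L1 against 7.16 and 5.87 FPKM with JQ1 alone. The summed list was 890 and 713 FPKM with anti-PD-L1, 602 and 327 FPKM with JQ1 alone and 673 and 733 FPKM in vehicle tumours. Slfn4 and Ifitm6, interferon-inducible myeloid genes outside that list, were among the 12 lowest-p genes on the higher side, with differences of 2.05 and 2.41.

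Interferon-stimulated promoters carry the ISRE, to which STAT2 and IRF proteins bind. Its core, GAAA and GAAA with any 2 bases between them, searched on both strands, was found in 11 of the 21 type I list genes with a RefSeq promoter (52.4%), against 1131 of all 32851 promoters (3.44%). It was also found in 11 of 16 interferon gamma list genes (68.8%), so the letters do not separate the lists that lay on opposite sides. Here too the lists were counted by gene and the background by promoter. The Ifit3 promoter, at chr19:34583279-34583578 on the plus strand of GRCm38.p6, holds 2 cores, beginning 156 and 122 bases before the start and read on the coding strand as TTTC, any 2 bases, TTTC (capitals). None of the 4 promoters shown holds both cores.
Ifit3: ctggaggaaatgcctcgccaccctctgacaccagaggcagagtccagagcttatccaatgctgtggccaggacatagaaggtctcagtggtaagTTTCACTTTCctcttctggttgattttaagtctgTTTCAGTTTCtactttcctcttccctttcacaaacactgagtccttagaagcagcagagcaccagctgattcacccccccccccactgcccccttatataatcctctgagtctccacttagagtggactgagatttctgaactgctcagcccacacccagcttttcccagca

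Monocyte and neutrophil genes lay higher with anti-PD-L1, with wide spread in JQ1 tumours. Of 16 monocyte genes 6 lay higher and 1 lower without overlap (median 0.60, with 0.89 without JQ1 replicate 1 and 0.20 without JQ1 replicate 2). Ccr2, the receptor that brings monocytes out of bone marrow, was at 25.8 and 15.6 FPKM with anti-PD-L1 and at 3.49 and 1.5 FPKM with JQ1 alone (difference 2.66 ± 0.56, limma adjusted p = 0.102), below the 39.5 and 50.5 FPKM of vehicle tumours. F13a1, a transglutaminase of monocytes and macrophages, was at 225 and 263 FPKM with anti-PD-L1, against 25.2 and 105 FPKM with JQ1 alone. Chil3, a lectin of inflammatory monocytes, was at 122 and 71.8 FPKM with anti-PD-L1 and at 3.19 and 37.8 FPKM with JQ1 alone, and Fn1 (fibronectin) overlapped at 258 and 218 FPKM with anti-PD-L1 and at 198 and 265 FPKM with JQ1 alone. Ms4a6c and Ms4a6b, related membrane genes of myeloid cells, were even within groups, at 223 and 203 FPKM with anti-PD-L1 and 117 and 104 FPKM with anti-PD-L1 and at 90.7 and 93.2 FPKM with JQ1 alone and 54.9 and 57.5 FPKM with JQ1 alone. Of 22 neutrophil genes 8 lay higher and 1 lower without overlap (median 1.24, with 0.55 without JQ1 replicate 1 and 1.85 without JQ1 replicate 2). S100a8 and S100a9, the subunits of calprotectin, were at 490.0 and 728 FPKM with anti-PD-L1 and at 397 and 546 FPKM with anti-PD-L1, and at 107 and 355 FPKM with JQ1 alone and at 63.8 and 461 FPKM with JQ1 alone. S100a8 did not overlap and S100a9 did. Retnlg was at 5.61 and 30.1 FPKM with anti-PD-L1 and 1.26 and 3.24 FPKM with JQ1 alone, and the surface protein Cd177 at 11 and 10.4 FPKM with anti-PD-L1 and 0.557 and 4.05 FPKM with JQ1 alone. The member below both JQ1 libraries was Sorl1, a sorting receptor that other cells express as well (-1.15).

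Macrophage genes lay higher in 15 of 22 tested members without overlap and lower in none (median 0.53), and the JQ1 replicates were close for this list. Lyz2, the lysozyme of myeloid cells, was at 13922 and 13335 FPKM with anti-PD-L1 and 7765 and 9204 FPKM with JQ1 alone. Apoe was at 5696 and 6995 FPKM with anti-PD-L1 and at 3977 and 4924 FPKM with JQ1 alone, Cd14 at 1546 and 1821 FPKM with anti-PD-L1 and at 842 and 732 FPKM with JQ1 alone, and Trem2 at 194 and 212 FPKM with anti-PD-L1 and at 123 and 99.6 FPKM with JQ1 alone. Each lay above both JQ1 libraries, with differences of 0.51 to 1.09 on the log2 scale. Genes of alternatively activated and resident macrophages lay higher in 11 of 20 and lower in none (median 1.28, with 0.76 without JQ1 replicate 1 and 2.09 without JQ1 replicate 2). The arginine-degrading enzyme Arg1 was at 657 and 687 FPKM with anti-PD-L1 and 271 and 248 FPKM with JQ1 alone, and the folate receptor Folr2 at 80.0 and 119.5 FPKM with anti-PD-L1 and 14.8 and 43.9 FPKM with JQ1 alone. The complement receptor Vsig4 differed by 2.06, the hyaluronan receptor Lyve1 by 2.20 and the mannose receptor Mrc1 by 1.28. Cfp (properdin), a complement stabiliser made by myeloid cells, was at 414 and 389 FPKM with anti-PD-L1 and 134 and 166 FPKM with JQ1 alone (difference 1.42 ± 0.29, limma adjusted p = 0.102). Fc receptor and phagocytosis genes lay higher in 9 of 17 and lower in 2 (median 0.53), among them the adaptor Tyrobp at 1183 and 1060 FPKM with anti-PD-L1 against 627 and 665 FPKM with JQ1 alone and Fcgr1 at 51.5 and 37.8 FPKM with anti-PD-L1 against 25.6 and 10.3 FPKM with JQ1 alone. Osteoclast and giant cell genes lay higher in 3 of 9 and lower in 1 (median 0.48, with 0.18 without JQ1 replicate 1). Their members with the highest level, Mmp9 and Acp5, overlapped, at 123 and 77.5 FPKM with anti-PD-L1 and 74.2 and 45.1 FPKM with anti-PD-L1 and 4.63 and 85.9 FPKM with JQ1 alone and 12.2 and 66.0 FPKM with JQ1 alone.

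Pf4 (platelet factor 4), placed in both the platelet and the resident macrophage list, was at 1074 and 1019 FPKM with anti-PD-L1 and at 44.9 and 557 FPKM with JQ1 alone. Ppbp, another platelet chemokine, was at 97.6 and 15.5 FPKM with anti-PD-L1 and at 0 and 8.07 FPKM with JQ1 alone. Neither overlapped. Itgb3, an integrin chain of platelets that macrophages also express, is the remaining tested member of the platelet list and lay lower, at 0.710 and 0.717 FPKM with anti-PD-L1 and at 3.76 and 2.46 FPKM with JQ1 alone. The platelet-defining genes Gp9, Gp5 and Tubb1 were listed at 0 in all 4 libraries. Erythroid Hba-a1 and HBB-B1 were low, at 0.929 and 5.93 FPKM with anti-PD-L1 and 1.96 and 2.78 FPKM with anti-PD-L1 and 0.0908 and 0.616 FPKM with JQ1 alone and 0.490 and 0.129 FPKM with JQ1 alone.

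Chemokines that draw monocytes lay higher with anti-PD-L1. Ccl7, a ligand of CCR2, was at 1559 and 1261 FPKM with anti-PD-L1 and at 369 and 564 FPKM with JQ1 alone (difference 1.62 ± 0.26, limma adjusted p = 0.0931). Ccl2, the main CCR2 ligand, was at 1418 and 1230 FPKM with anti-PD-L1 and at 385 and 709 FPKM with JQ1 alone (difference 1.34 ± 0.30, limma adjusted p = 0.106). Ccl12 was at 281 and 292 FPKM with anti-PD-L1 and 145 and 33.2 FPKM with JQ1 alone, and Ccl6 at 1280 and 1381 FPKM with anti-PD-L1 and 322 and 791 FPKM with JQ1 alone. All 4 lay above both JQ1 libraries. Over the 25 tested chemokines 13 lay higher and 1 lower without overlap (median 0.54). The neutrophil attractants Cxcl1 and Cxcl2 had the highest levels: Cxcl1 lay higher at 3135 and 3145 FPKM with anti-PD-L1 against 2443 and 1919 FPKM with JQ1 alone, and Cxcl2 overlapped at 5906 and 4521 FPKM with anti-PD-L1 against 5271 and 4396 FPKM with JQ1 alone. Ccl5, a T cell attractant, was at 20.8 and 22.7 FPKM with anti-PD-L1 and at 179 and 13.8 FPKM with JQ1 alone, so only JQ1 replicate 1 was high. Of 14 chemokine receptors 4 lay higher and 6 lower (median -0.38, with -0.083 without JQ1 replicate 1 and -0.89 without JQ1 replicate 2), and the most abundant, Ccrl2 and Ccr1, differed by 0.61 and 0.37.

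Il18, a cytokine released by the inflammasome, had the lowest p on the higher side. It was at 13.7 and 11.9 FPKM with anti-PD-L1 and at 2.54 and 2.88 FPKM with JQ1 alone (difference 1.90 ± 0.27, limma adjusted p = 0.0844), and its difference was 1.83 without JQ1 replicate 1 and 1.96 without JQ1 replicate 2. Osm (oncostatin M) was at 218 and 270.1 FPKM with anti-PD-L1, against 56.8 and 112 FPKM with JQ1 alone. Neither gene overlapped. Il1b was at 1152 and 1976 FPKM with anti-PD-L1 and 1202 and 512 FPKM with JQ1 alone, Tnf at 301 and 290.0 FPKM with anti-PD-L1 and 769 and 292 FPKM with JQ1 alone, and Nfkbia, the NF-κB inhibitor, at 2049 and 1707 FPKM with anti-PD-L1 and 787 and 2014 FPKM with JQ1 alone, all with overlap. Of 21 inflammatory cytokine genes 4 lay higher and 1 lower without overlap, a share of higher genes no larger than the 20.4% of all genes. Their median of 0.51 was 0.096 without JQ1 replicate 2.

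**Figure D3:**
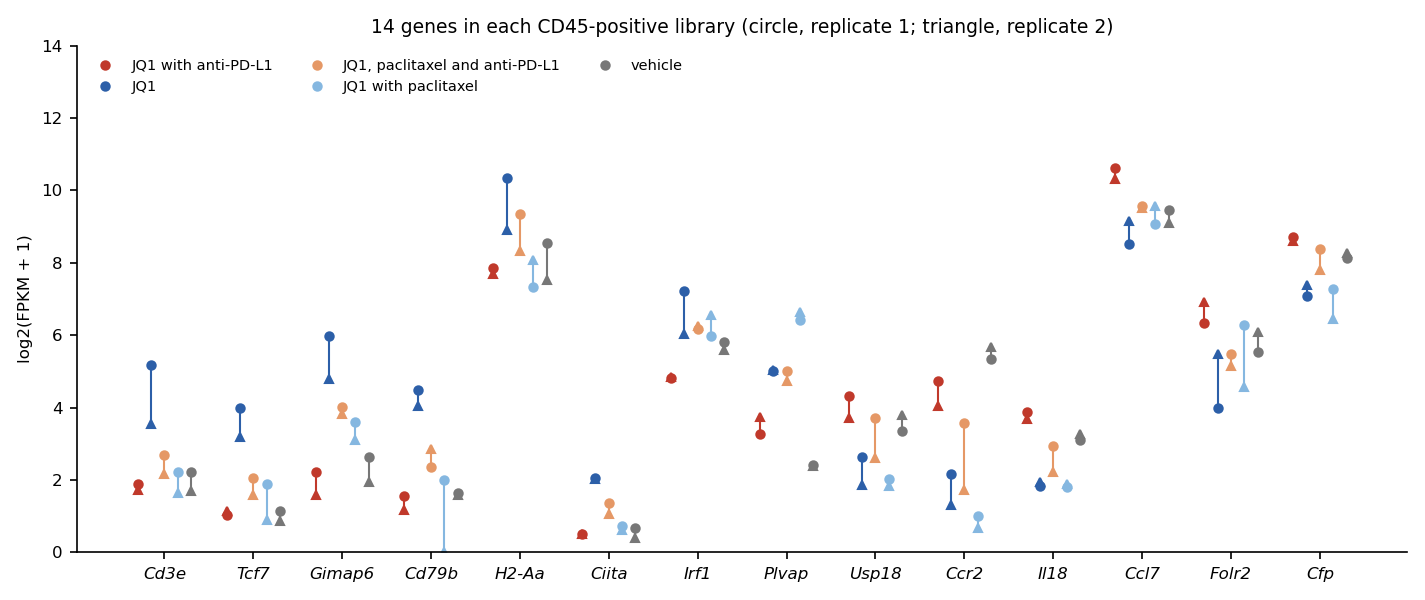
log2(FPKM + 1) (vertical axis) of 14 named genes in each CD45-positive library, by group; circles are replicate 1, triangles replicate 2, and a line joins the 2 tumours of a group. Both libraries with anti-PD-L1 lie below both JQ1 libraries for the first 8 genes (Cd3e to Plvap) and above both for the last 6 (Usp18 to Cfp).

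Endothelial genes were found in the CD45-positive libraries and lay lower with anti-PD-L1 in 13 of 14 tested members without overlap and higher in none (median -0.69). Plvap, of fenestrated vessels, was at 8.57 and 12.3 FPKM with anti-PD-L1 and at 31.5 and 31.7 FPKM with JQ1 alone (difference -1.53 ± 0.22, limma adjusted p = 0.0844). The junction protein Pecam1 was at 3.64 and 3.43 FPKM with anti-PD-L1 and at 10.4 and 8.45 FPKM with JQ1 alone, and Emcn (endomucin) at 0.848 and 0.480 FPKM with anti-PD-L1 and at 2.73 and 3.25 FPKM with JQ1 alone. Fabp4, a fatty acid carrier of vessels and adipocytes, was at 27.3 and 25.4 FPKM with anti-PD-L1 and 76.8 and 68.9 FPKM with JQ1 alone, and the matrix inhibitor Timp3 at 1.49 and 1.54 FPKM with anti-PD-L1 and 6.03 and 5.03 FPKM with JQ1 alone. The JQ1 replicates were close in all 5. The summed endothelial list was 29.9 and 33.0 FPKM with anti-PD-L1, 78.3 and 77.5 FPKM with JQ1 alone and 11.9 and 16.6 FPKM in vehicle tumours. Endothelial cells are not leukocytes, and their genes lay lower together with the lymphocyte genes; their part in those results was not tested.

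Among genes close to the action of JQ1, Brd2 overlapped at 94.3 and 41.6 FPKM with anti-PD-L1 and 74.1 and 129 FPKM with JQ1 alone. Hexim1, whose induction marks BET inhibition, overlapped at 4.13 and 1.99 FPKM with anti-PD-L1 and 2.84 and 5.75 FPKM with JQ1 alone, as did Myc at 10.3 and 12 FPKM with anti-PD-L1 and 10.0 and 14.4 FPKM with JQ1 alone. Of 13 BET-related genes 1 lay higher and 6 lower without overlap (median -0.52, with -0.24 without JQ1 replicate 2). The higher gene was Ccr2, which is also counted in the monocyte and chemokine receptor lists. Of 18 tested genes of amino acid and unfolded protein stress 3 lay higher and 6 lower without overlap (median -0.16). Sdf2l1, a member of that list and a chaperone cofactor of the endoplasmic reticulum, lay higher: it was at 131 and 135 FPKM with anti-PD-L1 and 61.7 and 65.5 FPKM with JQ1 alone (difference 1.05 ± 0.17, limma adjusted p = 0.0931). Respiratory chain genes lay higher in 20 of 24 tested members and lower in none, by a small amount (median 0.31), such as Cox4i1 at 381 and 395 FPKM with anti-PD-L1 and 294 and 299.6 FPKM with JQ1 alone, and Uqcrq (0.52). The rest of the 12 lowest-p genes on the higher side were Dmkn (3.12), the bilirubin-forming reductase Blvra (1.11), Syngr1 (1.09), the clathrin adaptor subunit Ap2s1 (1.13) and the fatty acid carrier Fabp5 (1.22), with limma adjusted p-values of 0.0931 to 0.0963. In 17 of the 43 lists the median lay within 0.35 of 0, and the 33 genes that were their most abundant members differed by -0.58 to 1.0, with 9 higher and 2 lower without overlap.

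The same antibody added to JQ1 with paclitaxel could be set beside these values, since that comparison shares no library with the one above. Its groups carry 2 mouse codes each, whereas the groups above carry 1 each. The replicates of the 2 comparisons, and of the test of their difference below, are thus not of the same kind. In the 3-drug group against JQ1 with paclitaxel 1 of 10340 genes passed (0.00967%), Mir6236, which was lower (difference -2.83, limma adjusted p = 0.0195), and 2822 genes lay higher (27.3%) and 1521 lower (14.7%) without overlap. That call was lost with no filter on low values and with relative depth as a covariate. It was also lost with either 3-drug library, JQ1 with paclitaxel replicate 1, either vehicle library or either JQ1 with anti-PD-L1 library left out. The medians of the lymphoid lists had the opposite sign there: the median without paclitaxel was -1.71 for T cells, -1.58 for B and plasma cells and -1.75 for MHC class II genes, and with paclitaxel 0.63, 0.68 and 0.93. With paclitaxel 5 of 17 T cell genes lay higher and 1 lower without overlap, close to the 27.3% of all genes that lay higher. There 6 of 16 B and plasma cell genes and 9 of 11 class II genes lay higher and none lower. As a mean of log2(FPKM + 1) over its tested members, the B and plasma cell list was at 2.61 and 2.58 in the 3-drug group. With JQ1 and paclitaxel it was at 2.54 and 1.25, so its difference rested mainly on the low replicate 2. The T cell list overlapped, at 2.21 and 1.31 against 1.62 and 0.70. The class II list did not, at 6.95 and 6.16 against 5.39 and 5.66. The median of all genes was -0.07 without and 0.12 with paclitaxel. The tests of the difference between the antibody effects, without paclitaxel minus with it, called 0 genes (0%), with a lowest limma adjusted p of 0.166 and 1070 genes (10.3%) at an unadjusted p under 0.05. Of the 11 MHC class II genes 10 had an unadjusted p under 0.05 in that test, with a median of -2.97. Cd74 was at 2931 and 1431 FPKM in the 3-drug group and 793 and 1576 FPKM with JQ1 and paclitaxel, and the difference between the antibody effects was -3.12 ± 0.77 (limma adjusted p = 0.275). Cd3e was at 5.40 and 3.48 FPKM in the 3-drug group and at 3.67 and 2.13 FPKM with JQ1 and paclitaxel, and the difference between the effects was -3.05 ± 0.70 (limma adjusted p = 0.25). Type I interferon genes lay on the same side in both settings, with medians of 0.93 without and 0.58 with paclitaxel. With paclitaxel 18 of 30 lay higher and 0 lower without overlap. The mean level of that list overlapped, at 3.55 and 2.68 in the 3-drug group against 2.43 and 2.70 with JQ1 and paclitaxel. Only replicate 1 of the 3-drug group was high. Medians of neutrophil genes (1.24 without and 1.08 with paclitaxel) and monocyte genes (0.60 without and 0.88 with it) also kept their side. So did that of endothelial genes (-0.69 without and -1.33 with it). Resident macrophage genes (1.28 without and -0.05 with paclitaxel) and chemokines (0.54 without and 0.01 with it) had a median near 0 with paclitaxel. Without JQ1 with paclitaxel replicate 1 the test of the difference called 10 genes, all with a negative difference of effects.

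**Figure D4:**
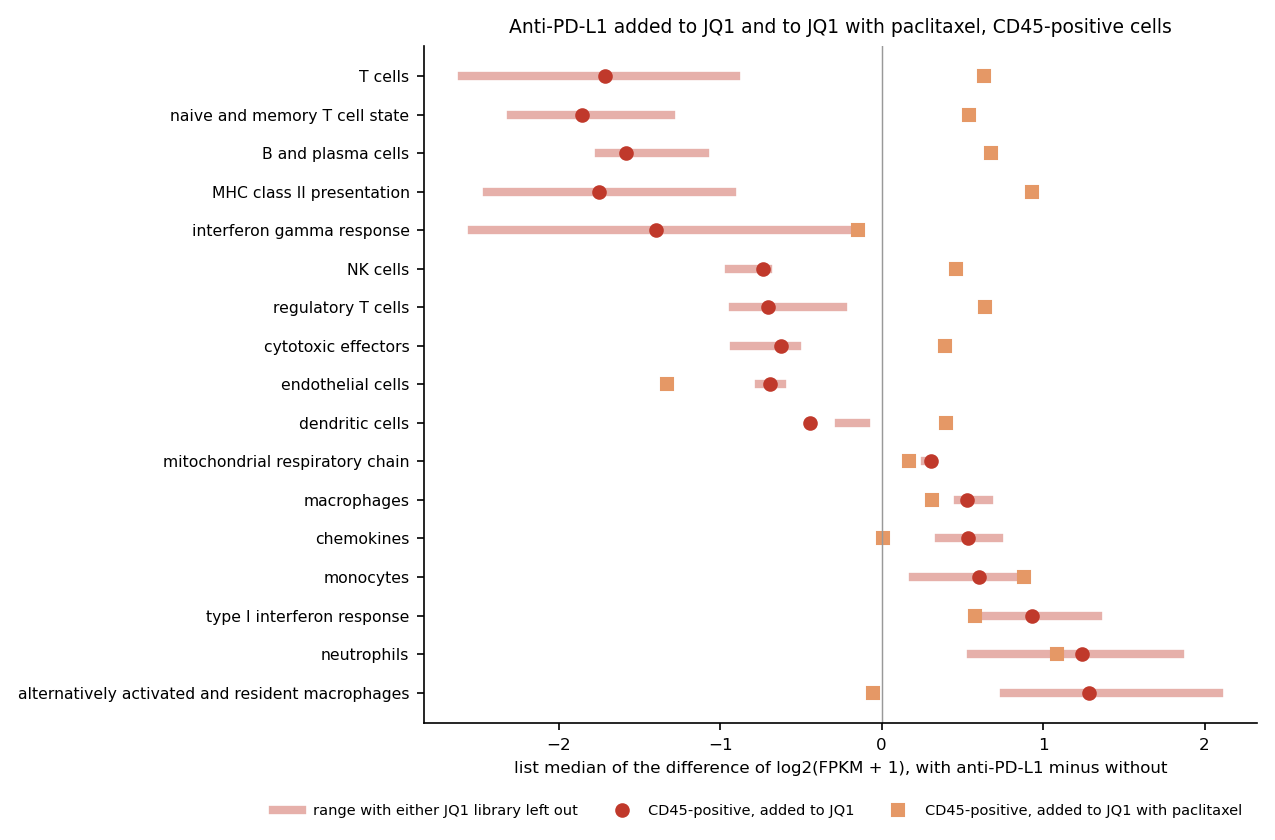
List medians of the difference of log2(FPKM + 1), with anti-PD-L1 minus without (horizontal axis), for 17 gene lists in CD45-positive cells; circles are anti-PD-L1 added to JQ1, squares anti-PD-L1 added to JQ1 with paclitaxel, and bars join the circles' values recomputed without either JQ1 library. No such bars are drawn for the squares. Lymphocyte and MHC class II medians lie below 0 for circles and above 0 for squares, and type I interferon, neutrophil and monocyte medians lie above 0 for both.

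In the CD45-negative cells of the same 4 tumours more genes passed. There 629 of 10780 genes (5.83%) had a limma adjusted p under 0.05, 368 higher (3.41%) and 261 lower (2.42%) with anti-PD-L1. Relative depth was 1.39 and 1.02 with anti-PD-L1 and 0.554 and 0.653 with JQ1 alone, and the count was 303 with depth as a covariate, 37 when replicate 2 of JQ1 with anti-PD-L1 was left out and 60 when JQ1 replicate 1 was. Type I interferon genes rose in 8 of 29 tested members, Ifit3 among them at 3.54 and 5.48 FPKM with anti-PD-L1 and 0.124 and 0.245 FPKM with JQ1 alone (difference 2.20 ± 0.23, limma adjusted p = 0.000856). Chemokines rose in 12 of 24: Ccl7 was at 308 and 194 FPKM with anti-PD-L1 and 80.6 and 72.1 FPKM with JQ1 alone (limma adjusted p = 0.00826), and Ccl12 at 45.1 and 36.5 FPKM with anti-PD-L1 and 6.87 and 3.08 FPKM with JQ1 alone (limma adjusted p = 0.00134). Arg1, Ccr2 and Il1b rose as well, by 2.37, 1.83 and 3.04. These are genes of myeloid cells, and the summed pan-leukocyte list was 460 and 318 FPKM with anti-PD-L1 and 260 and 174 FPKM with JQ1 alone in these CD45-negative libraries; its part in the result was not tested. No MHC class II gene of 8 tested and no T cell gene of 4 tested passed there. At the 5.83% share of all genes, so few tested members would hold about none. These counts do not show that class II or T cell genes were unchanged.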

How the data were processed

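RNA of tumour cells, separated by anti-CD45 beads, was made into libraries with a low-input SMARTer kit, per the labels' protocols. Reads were aligned to mm9 with STAR 2.5.1b, per the submitters' processing notes; no source used here names the tool that made the gene values. The authors deposited 1 table for each cell fraction, and its values were read as FPKM from their column sums (315256 to 364118 in the CD45-positive table) and from their steps, although a label speaks of counts. Relative depth was estimated from the step size of low values, as these steps scale with the reads in a library. Read totals are unknown, so no counting interval is given, and an exact 0 is given only as listed.

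Genes with at least 1 FPKM in 2 or more of the 10 CD45-positive libraries were fitted with limma 3.58.1 (R 4.3.3, variance trend) on log2(FPKM + 1) over 5 groups of 2 libraries, two-sided, with Benjamini-Hochberg adjustment over all 10340 genes and a call at an adjusted p under 0.05. Differences on this scale understate those of low genes. The test of the difference between antibody effects used the same fit, and the CD45-negative table (12 libraries) was fitted on its own. No label names a sequencing batch. A list is described by how many members lay higher or lower in both libraries of a group, and by its median, beside the same over all genes. The members and the 43 lists were chosen with earlier results of these data known. Some genes, such as Ccr2, Chil3, Ciita, Bst2 and Fcer1g, are in more than 1 list, so counts of different lists are not separate observations.

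Genes named by rule were the 12 higher and 12 lower non-overlapping genes of lowest p with a mean log2 level of at least 2, the 2 most abundant members of each list (in a range for lists near 0), and genes of the PD-1 and BET pathways; other list members were named after their values were seen. Some genes the rule selects are not reported here. Promoter sequences are RefSeq's (GRCm38.p6), matched by symbol; class II genes not in that table were Cd74, Ciita and H2-Ab1. Alternatives were another pseudocount, filter, scaling, variance model or set of libraries, relative depth, the mouse code and tumour side.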

Additional observations from a re-analysis of the deposited data

How the results depend on the processing

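For anti-PD-L1 added to JQ1, 0 genes were called by limma under a pseudocount of 0.1, no filter, a stricter filter, upper quartile scaling, quantile normalization, array weights (lowest adjusted p 0.0504), no variance trend and relative depth as a covariate (0.218). Taking 1 value per mouse code left 1 value in each compared group, so its count is not given. With the 2 groups alone 3 genes were called, and with a pseudocount of 5, 23 were (3 higher, 20 lower). Leaving out 1 library gave 0 to 73. Tumour side, right or left, was also fitted as a block, and the labels do not tie a side to a shared animal across groups. With it limma called 0 genes for the antibody (lowest adjusted p 0.135) and 0 for the difference between antibody effects (0.344). That difference gave 0 to 10 genes with 1 library left out. On JQ1 with paclitaxel the count was 0 without a filter, 2 with a pseudocount of 0.1, 0 with relative depth as a covariate, and 0 to 5 with 1 library left out. In CD45-negative cells it was 419 without a filter, 303 with relative depth, and 37 to 759 with 1 library left out. The cause of these changes was not tested.

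Of 134 named genes 116 kept the sign of their difference under every alternative. For a gene whose groups did not overlap, leaving out 1 library could not change the sign. Many genes were named for not overlapping or after their values were seen, so this count does not measure stability. The other 18 changed sign when 1 library was left out, with differences of -1.97 to 0.17 for Cd274, -0.81 to 0.60 for Cd86, -0.45 to 0.49 for Vsir, -0.053 to 1.77 for Il10, -1.44 to 1.24 for Gzmc, -0.027 to 0.50 for Xbp1, -0.16 to 0.26 for Fn1, -0.45 to 1.08 for Cd83, -0.19 to 2.16 for Acp5, -3.33 to 0.089 for AW112010, -0.11 to 1.25 for Nfkbia, -0.090 to 0.30 for Cxcl2, -0.78 to 0.029 for Hexim1, -0.35 to 0.14 for Myc, -2.66 to 0.21 for Ifng, -2.99 to 0.63 for Ccl5, -1.38 to 0.015 for Tnf and -0.14 to 4.68 for Camp. Vsir was also at -0.11 with quantile normalization and -0.011 with upper quartile scaling, Fn1 at -0.21 with quantile normalization, and Gzmc at 0.48 and Myc at 0.036 with relative depth as a covariate.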
